A study of Mus musculus with 24 samples.

Results

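The subject is 47 genes that act in the G2 phase of the cell cycle and in mitosis, followed in RNA sequencing of liver cells from 70% hepatectomy and from a sham operation. The genes were listed by name for their known roles, not by a value measured here, and the list was drawn up with earlier results of these data known. All 47 are among the 46477 gene symbols of the count table, and all 47 were among the 14325 genes kept for testing. By role they comprise 8 cyclins, CDK1 and their partners, 5 mitotic kinases and checkpoint genes, 3 of the chromosomal passenger complex, 2 of the anaphase-promoting complex (APC/C) pathway, 6 of centromere and kinetochore, 11 of spindle and microtubules, 4 of cytokinesis and 8 of chromosomes and chromatin.

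The cells were labelled granulocytic myeloid-derived suppressor cells (G-MDSCs), neutrophil-like cells selected from liver digests as CD11b+Ly6G+ on magnetic columns. Many libraries also held high levels of sinusoidal endothelial markers, given below, so RNA in them cannot be assigned to neutrophil-like cells alone. The mice were wild-type BALB/C males, 8 weeks old. The 4 hepatectomy groups had 70% of the liver removed and were sampled 1, 2, 3 or 4 days later (postoperative day, POD1 to POD4). The 4 sham groups had the midline laparotomy alone and were sampled on the same days. Each group has 3 libraries, 24 in all. Nothing in the labels says that the libraries of a group came from separate mice, so p-values measure the spread between these libraries, which may be technical in part.

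A cell enters mitosis when CDK1, bound to cyclin A or B, becomes active, and it leaves mitosis when the APC/C marks cyclins and other proteins for destruction. In between, condensins and topoisomerase II shape the chromosomes, kinetochores attach them to spindle microtubules, Aurora B and Polo-like kinase correct and time the process, and anillin and its partners divide the cell. Mature neutrophils do not divide; their precursors do, mainly in bone marrow. Most genes of this programme are switched on together late in the cycle through CHR elements (TTTGAA or TTCGAA), bound by the MuvB complex with B-MYB and FOXM1 or with repressors, and CCAAT boxes, bound by NF-Y.

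Promoter windows of 300 bases (250 before to 50 after the start; RefSeq, GRCm38.p6) were found for 40 of the 47 genes, with none for Cdca2, Cdc25c, Ccna2, Aurkb, Tpx2, Dlgap5 and Smc4. The letters CCAAT, read on both strands, stood in the windows of 32 of the 40 genes (80.0%), against 41.1% of all 27025 genes in the promoter table. The hexamers of the CHR type, also read on both strands, stood in 31 (77.5%), against 21.7% of all genes. Both kinds stood in 26 (65.0%), against 8.61% of all genes. A CCAAT and a hexamer can share at most 1 base, and a hexamer that reads the same on both strands was counted once. The hexamers lay nearer the start (median offset of their first base -17.5) than CCAAT (median -71). These medians pool all matches in 44 windows of the 40 genes. Where windows of a gene overlap, as for Ect2 and Psrc1, a site can enter more than once at different offsets. These are matches of letters, not measured binding sites. The windows below were taken only from those that held both motifs, so they do not stand for all 40. Among them, Cdk1, Ccnb2, Top2a and Bub1 are examples of genes under 2 CPM on POD1 after hepatectomy and higher later. Cenpa is shown because it had the lowest adjusted p on POD1, and Mki67 because it was the 1 member called higher on POD1. Birc5, with neither motif, was also under 2 CPM on POD1 and higher later. Capitals mark these motifs, each shown as read on either strand. All are written 5′ to 3′ on the gene's strand.
Cdk1 promoter, chr10:69352863-69353162, minus strand: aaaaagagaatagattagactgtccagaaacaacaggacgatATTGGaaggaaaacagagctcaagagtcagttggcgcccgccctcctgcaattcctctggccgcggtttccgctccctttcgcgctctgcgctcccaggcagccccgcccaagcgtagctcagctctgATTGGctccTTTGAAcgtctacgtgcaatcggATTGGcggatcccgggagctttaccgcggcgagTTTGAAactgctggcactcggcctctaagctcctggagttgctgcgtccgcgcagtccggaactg
Ccnb2 promoter, chr9:70421505-70421804, minus strand: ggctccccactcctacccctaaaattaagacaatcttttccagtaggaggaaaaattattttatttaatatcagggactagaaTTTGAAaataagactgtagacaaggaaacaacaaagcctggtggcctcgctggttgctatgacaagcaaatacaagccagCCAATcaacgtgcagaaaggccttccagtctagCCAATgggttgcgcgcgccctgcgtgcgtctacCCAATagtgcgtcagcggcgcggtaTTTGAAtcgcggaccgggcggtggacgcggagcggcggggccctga
Top2a promoter, chr11:99024140-99024439, minus strand: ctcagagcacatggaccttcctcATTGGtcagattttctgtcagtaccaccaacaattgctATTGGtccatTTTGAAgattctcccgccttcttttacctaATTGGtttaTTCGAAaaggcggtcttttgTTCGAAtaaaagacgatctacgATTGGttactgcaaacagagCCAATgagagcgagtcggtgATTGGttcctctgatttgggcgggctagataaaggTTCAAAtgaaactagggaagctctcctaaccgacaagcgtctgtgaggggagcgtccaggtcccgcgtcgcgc
Bub1 promoter, chr2:127831810-127832109, minus strand: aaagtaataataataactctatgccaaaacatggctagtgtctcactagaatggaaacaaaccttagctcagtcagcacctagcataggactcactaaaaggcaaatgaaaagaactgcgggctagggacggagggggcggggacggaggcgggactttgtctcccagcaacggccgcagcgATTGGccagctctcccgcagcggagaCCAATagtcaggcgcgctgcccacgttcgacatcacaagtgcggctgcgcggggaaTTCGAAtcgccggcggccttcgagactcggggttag
Cenpa promoter, chr5:30666636-30666935, plus strand: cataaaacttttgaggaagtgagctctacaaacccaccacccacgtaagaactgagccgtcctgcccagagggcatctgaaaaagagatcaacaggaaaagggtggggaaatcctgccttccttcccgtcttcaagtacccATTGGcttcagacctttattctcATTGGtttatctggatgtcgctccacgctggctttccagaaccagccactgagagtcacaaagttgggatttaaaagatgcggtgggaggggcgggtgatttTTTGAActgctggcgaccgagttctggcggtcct
Mki67 promoter, chr7:135716330-135716629, minus strand: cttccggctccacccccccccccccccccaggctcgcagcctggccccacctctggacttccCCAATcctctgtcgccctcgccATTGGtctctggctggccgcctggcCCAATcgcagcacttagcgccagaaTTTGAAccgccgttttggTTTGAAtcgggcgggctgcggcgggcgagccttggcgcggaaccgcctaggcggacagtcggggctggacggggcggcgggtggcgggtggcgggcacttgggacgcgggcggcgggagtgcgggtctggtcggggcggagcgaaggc
In Cdk1 the hexamers began at -71 and -15 from the start, and CCAAT boxes at -80 and -48 lay 32 bases apart, with another at -208. Ccnb2 held 3 CCAAT boxes spaced 33 bases apart, at -87, -54 and -21, and hexamers at -167 and 4. In Bub1 the hexamer began at 14 and in Cenpa at 16. Mki67 held 3 CCAAT boxes and 2 hexamers, with the hexamers at -116 and -98. Of the 40 genes, 4 held neither motif in their windows: Birc5, Tacc3, Nuf2 and Nusap1.

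The libraries held 10390216 to 16949088 counts. Levels are CPM, counts relative to library size, scaled by TMM factors, which correct for a few genes taking much of a library; they are not per length, so they are compared between libraries for the same gene and not between genes. TMM factors were 0.462 to 0.511 in the hepatectomy POD1 libraries and reached 1.43 elsewhere, so values on POD1 depend on the scaling: the median log2 difference of all tested genes on POD1, hepatectomy over sham, was -0.42 with TMM, -0.32 with median-of-ratios factors and -1.43 with library size alone. The mixture of cells also moved. Of 14 neutrophil markers, Ctsg alone was at 0 in all libraries of any group, in 4 of the 8 groups. Summed neutrophil markers came to 147297 to 176515 CPM in hepatectomy POD1 libraries and 6441 to 108302 CPM in sham POD1 libraries. These neutrophil sums were 17550 to 27083 CPM on POD2 after hepatectomy and 3329 to 8003 CPM after sham, without overlap. For POD3 the ranges were 9435 to 63862 CPM after hepatectomy and 16806 to 20108 CPM after sham. For POD4 they were 12636 to 80522 CPM after hepatectomy and 9211 to 139491 CPM after sham. Summed sinusoidal endothelial markers (19 of 19 detected) came to 1709 to 1932 CPM in hepatectomy POD1 libraries, against 2110, 7624 and 41075 CPM in sham POD1 libraries. On POD2 they were 24070 to 28460 CPM after hepatectomy and 35732 to 43287 CPM after sham. On POD3 they were 1601 CPM in hepatectomy replicate 1, 27280 and 31140 CPM in the other hepatectomy libraries and 29762 to 34088 CPM after sham. On POD4 they were 4395 CPM in hepatectomy replicate 1, 27752 and 21995 CPM in the others, and 36255, 1693 and 2651 CPM in sham replicates 1, 2 and 3. B cell markers summed to 3.21 to 4.67 CPM in hepatectomy POD1 libraries and 36.7 to 60.6 CPM in sham POD1 libraries, and to 30.4 to 56.5 CPM on POD2 after hepatectomy. Dendritic cell markers summed to 26.6 to 33.2 CPM in hepatectomy POD1 libraries and 71.98 to 254 CPM in sham POD1 libraries, and to 74.8 to 105 CPM on POD2 after hepatectomy. Kupffer cell markers summed to 483 to 661 CPM in hepatectomy POD1 libraries and 672 to 1645 CPM in sham POD1 libraries, and to 1570 to 2923 CPM on POD2 after hepatectomy. These 3 sums were, like most of the mitosis genes, lower on POD1 than on POD2 after hepatectomy, as were endothelial and monocyte sums. Erythroid markers went from 34.3 to 48.7 CPM on POD1 to 38.2 to 54.4 CPM on POD2 after hepatectomy, higher in their middle value but with overlap. The remaining marker sums did not rise. T and NK cell markers fell from 21.8 to 23.7 CPM on POD1 to 7.88 to 12.3 CPM on POD2, and neutrophil and neutrophil precursor sums fell too. Plasma cell markers went from 26.3 to 30.7 CPM to 12.7 to 25.3 CPM. Stellate cell markers went from 177 to 297 CPM to 147 to 185 CPM. The part of these shifts in the results below was not tested. In such mixed samples, fewer dividing cells and less mitotic RNA per cell cannot be told apart.

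**Figure D1:**
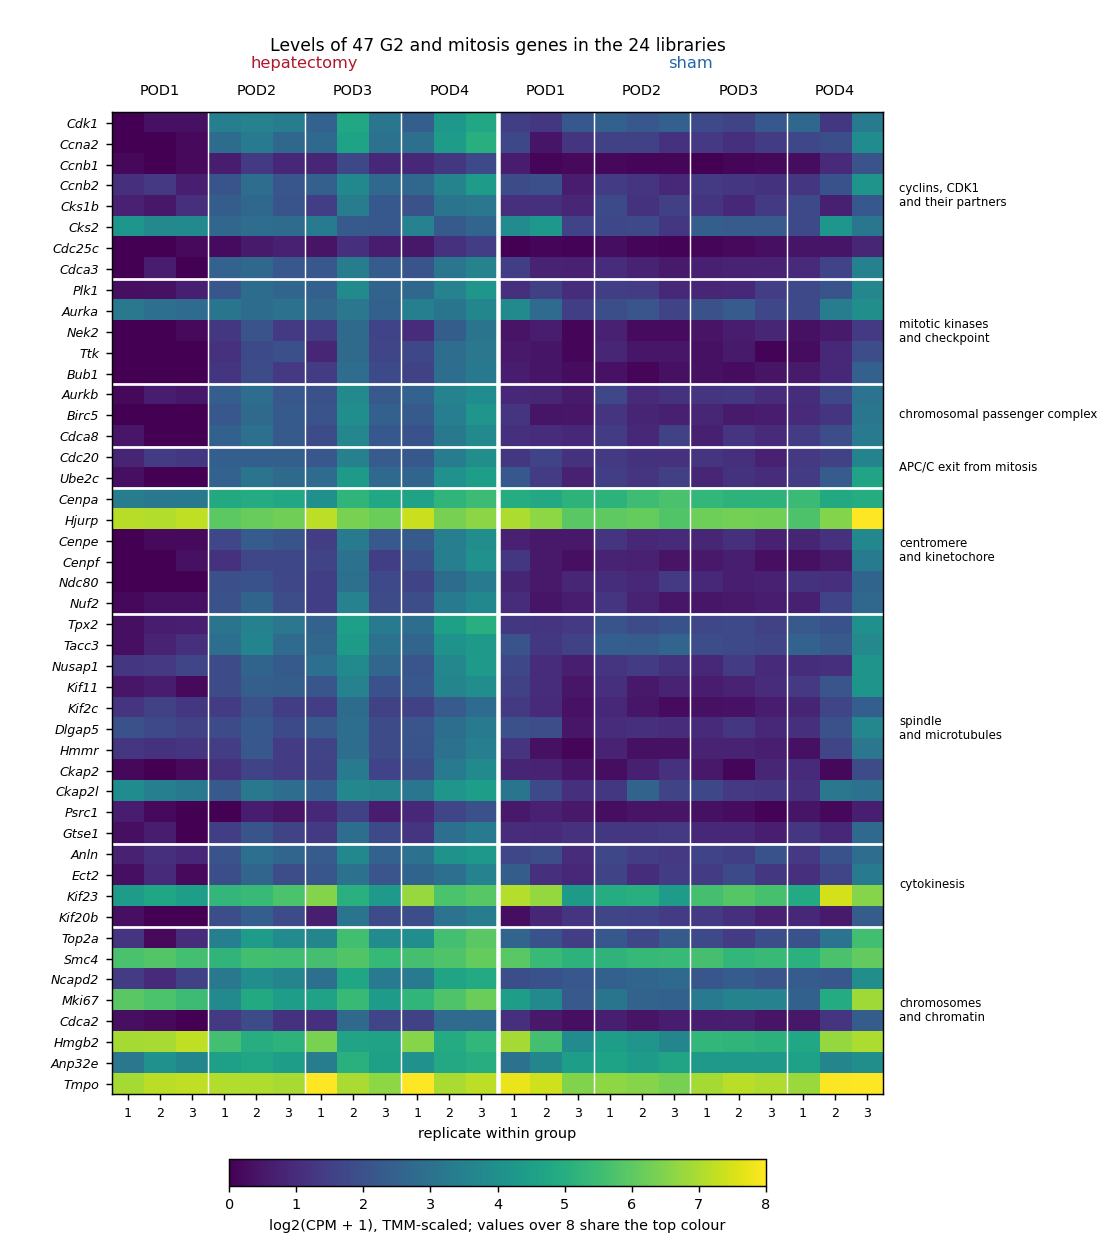
Level of each of the 47 genes (rows, by role) in each of the 24 libraries (columns, 3 per operation and day), as log2(CPM + 1). Most rows are dark in the 3 hepatectomy POD1 libraries and brighter in the later hepatectomy libraries; in most rows the sham columns stay dark apart from POD4 replicate 3.

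On POD1 most of these genes were near 0 after hepatectomy. In the hepatectomy libraries 34 of the 47 genes were under 2 CPM in all 3, and 11, 13 and 11 genes had no count at all, against 0 or 1 in every other library. Ttk, Bub1, Birc5 and Ndc80 had 0 counts in all 3. In the test of hepatectomy against sham (edgeR quasi-likelihood, Benjamini-Hochberg over all 14325 genes), 10 members were lower, in a comparison where 28% of all tested genes were called lower, and 1 member was higher, where 13% of all were. The count of lowered members is thus no larger a share than among genes at large. By log2 fold change 11 of the 47 members were positive and 36 negative, where 38.6% of all genes were positive. The members' median log2 fold change was -1.52, against -0.42 for all genes tested. This median was -1.14 with Birc5 and Ndc80 at their bounds and Bub1 and Ttk entered as no change. For Bub1 and Ttk no bound could be set, as their sham means lay under the floor of 3 counts per hepatectomy library. Lower in every hepatectomy than in every sham library were 19 members (28.1% of all tested genes were), and higher in every one were 3 (21.3%).

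On POD2 and POD3 most members stood above sham. After hepatectomy, 40 of 47 members on POD2 and 38 of 47 on POD3 were higher in every hepatectomy than in every sham library of the day, against 22.9% and 8.03% of all tested genes, and 0 members were lower in every library on POD3 (8.96%). The median log2 fold change of the members was 1.55 on POD2 and 2.398 on POD3, against -0.02 and 0.01 for all genes. The fit of all 24 libraries, which estimates 1 spread per gene over all groups, called no member past 0.05 on either day. In that fit 0.0349% of all genes were called higher and 0.0628% lower on POD2, and 0.0209% higher and 0% lower on POD3. The lowest adjusted p of a member was 0.216 and 0.122. On the 2 days 27 and 35 members had an unadjusted p under 0.05 with a higher level. In either direction 28 and 35 members did, where 8.87% and 7.58% of all genes did. By DESeq2, 2 members were called higher on POD2, where 0.81% of all genes were, and 26 on POD3 (1.89%). By limma voom with sample weights, which called far more genes, the counts were 38 (19% of all genes) and 37 (12.8%). Leaving out the 4 late libraries low in endothelial markers (hepatectomy POD3 and POD4 replicate 1, sham POD4 replicates 2 and 3) gave 5 on POD2 (0.745% of all genes) and 30 on POD3 (1%). On POD4, 2 members stood above sham without overlap (2.69% of all genes did), and none was called in the fit, where 0% of all genes were. An unadjusted p under 0.05 was reached by 16 members, all higher, and by 4.81% of all genes in either direction. On that day DESeq2 called 0 higher (0.209% of all genes) and voom 29, where it called 27.8% of all genes higher. The POD4 median was 0.96, against -0.02 for all genes.

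**Figure D2:**
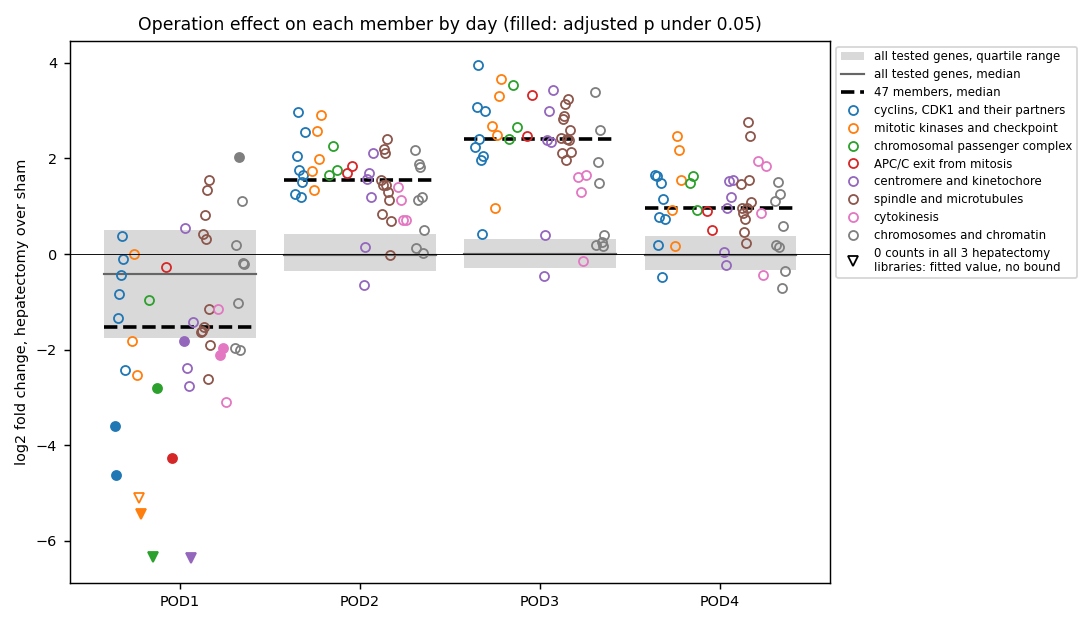
Log2 fold change, hepatectomy over sham, of each member by day (x axis) and role (colour), with the quartile range and median of all tested genes in grey and the members' median as a dashed line; filled symbols passed an adjusted p of 0.05, and triangles mark genes with 0 counts in all 3 hepatectomy libraries, whose fitted value is no bound. The members' median lies at -1.52 on POD1 and at 1.55, 2.398 and 0.96 on the later days, while the median of all genes stays near 0 after POD1.

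Within the hepatectomy course the change passed the test. Over the 4 days after hepatectomy 33 members differed (44.8% of all tested genes did). Against POD1, 32 members were higher on POD2 (34.5% of all genes), 34 on POD3 (34.5%) and 37 on POD4 (32.6%), where 0 were lower (17.6%). Without overlap with POD1, 36 were higher on POD2 (45.3%), 35 on POD3 (32.9%) and 38 on POD4 (38.2%). The median log2 differences were 3.08, 3.68 and 4.25, which become 2.88, 3.17 and 3.97 once the 4 genes with 0 counts are put at their lower bounds. All genes had medians of 0.33, 0.42 and 0.40. With median-of-ratios factors 30, 33 and 35 members were higher (32%, 31.7% and 30.1% of all genes). With library size alone 41, 43 and 44 were (61.9%, 64.9% and 62.8%). Over the 4 days after sham no member differed (0% of all genes did). An unadjusted p under 0.05 was reached by 31 (19.6% of all genes), DESeq2 called 23 (10.7%) and voom 15 (70.1%). Without sham POD1 replicate 3 the count was 17 (17.6%), and without sham POD4 replicate 1 it was 29 (23.2%). Against sham POD1, the members' median log2 difference after sham was -0.06 on POD2, -0.22 on POD3 and 1.67 on POD4. All genes had medians of 0.10, 0.02 and -0.02 there. On POD4 after sham 45 members were positive (47.7% of all genes). Of them 26 had an unadjusted p under 0.05 (4.8% of all genes, in either direction), and none was called (0%). The effect of the operation itself differed between days for 13 members (interaction, 8.68% of all genes).

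Of the cyclins and partners, the POD1 test called Cdk1 and Ccna2 lower. Cdk1 (chr10:69335146-69352938, minus strand, GRCm38), the kinase that drives entry into mitosis, had on POD1 0, 0.279 and 0.292 CPM in hepatectomy libraries, against 1.80, 1.48 and 3.65 CPM in sham libraries. On POD2, Cdk1 had 10.04, 10.8 and 9.38 CPM in hepatectomy libraries, against 4.54, 3.53 and 4.52 CPM in sham libraries. On POD3, Cdk1 had 4.70, 26.2 and 7.81 CPM in hepatectomy libraries, against 2.38, 2.15 and 3.62 CPM in sham libraries. The groups did not overlap on any of these days: hepatectomy lay below sham on POD1 and above it on POD2 and POD3. On POD4, Cdk1 had 4.34, 18.2 and 26.6 CPM in hepatectomy libraries, against 5.32, 1.47 and 8.80 CPM in sham libraries, and the groups overlapped. The POD1 difference passed the test (log2 -3.60, SE 0.96, adjusted p = 0.00767), and after hepatectomy Cdk1 was higher on POD4 than on POD1 (log2 6.40, SE 0.96, adjusted p = 0.000104).

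Ccna2 (chr3:36564865-36572150, minus strand) encodes cyclin A2, which acts in S phase and at the start of mitosis. Ccna2 had on POD1 0, 0 and 0.146 CPM in hepatectomy libraries, against 2.36, 0.369 and 1.37 CPM in sham libraries, that is 1 count against 52 in all, a ratio of 0.035 with a 95% counting interval of 0.000869 to 0.204 (adjusted p = 0.00962). On POD2, Ccna2 had 6.11, 9.10 and 5.47 CPM in hepatectomy libraries, against 1.90, 1.91 and 1.19 CPM in sham libraries. On POD3, Ccna2 had 5.60, 23.8 and 6.96 CPM in hepatectomy libraries, against 1.497, 1.15 and 1.68 CPM in sham libraries. It changed sides between POD1 and POD2 without overlap. On POD4, Ccna2 had 6.76, 20.1 and 31.7 CPM in hepatectomy libraries, against 2.34, 2.81 and 13.8 CPM in sham libraries, with sham replicate 3 above the lowest hepatectomy library. Its exons share 12.5% of their bases with Exosc9 on the opposite strand in GENCODE M21, and the strand setting of the counting is not given, so low counts of Ccna2 are uncertain.

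Ccnb1 and Ccnb2 encode the B cyclins, the main partners of CDK1 in mitosis. Ccnb1 (chr13:100778650-100786570, minus strand) had on POD1 0.130, 0 and 0.146 CPM in hepatectomy libraries, against 0.562, 0.0923 and 0.152 CPM in sham libraries. On POD2, Ccnb1 had 0.545, 1.57 and 0.847 CPM in hepatectomy libraries, against 0.130, 0.112 and 0.113 CPM in sham libraries. On POD3, Ccnb1 had 0.824, 2.36 and 0.844 CPM in hepatectomy libraries, against 0, 0.100 and 0.134 CPM in sham libraries. Each hepatectomy library lay above each sham library on POD2 and POD3, while POD1 gave 2 counts against 9 and no call. On POD4, Ccnb1 had 0.835, 1.47 and 2.41 CPM in hepatectomy libraries, against 0.213, 0.979 and 3.09 CPM in sham libraries, with sham replicate 3 the highest of the 6. Ccnb2 had on POD1 1.17, 1.54 and 0.584 CPM in hepatectomy libraries, against 2.58, 2.86 and 0.557 CPM in sham libraries. On POD2, Ccnb2 had 3.27, 6.21 and 3.45 CPM in hepatectomy libraries, against 1.64, 1.29 and 0.848 CPM in sham libraries. The POD1 groups overlapped and the POD2 groups did not. On POD3, Ccnb2 had 4.53, 12.4 and 5.64 CPM in hepatectomy libraries, against 1.57, 1.40 and 1.27 CPM in sham libraries. On POD4, Ccnb2 had 5.34, 11.03 and 19.9 CPM in hepatectomy libraries, against 1.42, 3.06 and 16.8 CPM in sham libraries. Hepatectomy replicate 2 of POD3 and sham replicate 3 of POD4 were the high libraries of their groups, as for most members. The count table also holds Ccnb2-ps, a transcribed processed pseudogene, and Cks1brt, a protein-coding gene with a name like that of Cks1b. Reads of Ccnb2 and Cks1b may therefore have been split. Of the remaining partners, Cks1b, a small subunit of CDK complexes, and Cdca3, an adaptor for the destruction of WEE1, were higher on POD4 than on POD1 after hepatectomy by log2 3.04 and 5.25 (adjusted p = 0.0016 and 0.000795). Cdc25c, the phosphatase that activates CDK1, had 67 counts on POD4 against 1 on POD1 after hepatectomy, a ratio of 26.7 with a counting interval of 4.63 to 1070.2 (adjusted p = 0.00239). Its exons share 12.7% of their bases with Gm3550 on the opposite strand, so these counts are uncertain. Cks2, the relative of Cks1b, was not called (log2 -1.14, adjusted p = 0.142).

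Among kinases and checkpoint genes, Plk1 (chr7:122159439-122169873, plus strand), Polo-like kinase 1, which acts from mitotic entry to cytokinesis, had on POD1 0.260, 0.279 and 0.584 CPM in hepatectomy libraries, against 1.12, 1.85 and 1.06 CPM in sham libraries. On POD2, Plk1 had 3.45, 6.09 and 5.14 CPM in hepatectomy libraries, against 1.82, 1.68 and 0.848 CPM in sham libraries. On POD3, Plk1 had 4.45, 12.9 and 4.91 CPM in hepatectomy libraries, against 0.817, 0.900 and 1.74 CPM in sham libraries. The hepatectomy libraries lay below sham without overlap on POD1, where the test missed the threshold (log2 -1.83, SE 0.74, adjusted p = 0.0535), and above it on the next 2 days. On POD4, Plk1 had 5.51, 10.6 and 16.96 CPM in hepatectomy libraries, against 2.41, 3.18 and 11.9 CPM in sham libraries, and after hepatectomy it was higher on POD4 than on POD1 (log2 4.87, SE 0.74, adjusted p = 0.000108). Bub1 and Ttk (MPS1), kinases of the spindle checkpoint, had 0 counts in the 3 hepatectomy POD1 libraries, against 13 and 10 counts in the sham POD1 libraries. Bub1 was called lower on POD1 (adjusted p = 0.0324) and Ttk was not (adjusted p = 0.0739). Neither has a bound on its POD1 fold, because its sham mean lay under the floor of 3 counts per hepatectomy library. On POD4 their hepatectomy means were at least 13.5-fold and 13.4-fold higher than 3 counts per library on POD1. Nek2, a centrosome kinase, had 255 counts on POD4 against 1 on POD1 after hepatectomy, a ratio of 102 with a counting interval of 18.1 to 4029.6 (adjusted p = 0.000677). Aurka (Aurora A, of the spindle poles) was the exception, with 5.99 to 8.31 CPM in hepatectomy and 1.82 to 13.3 CPM in sham libraries on POD1 and no call in either test (POD4 against POD1, log2 0.50, adjusted p = 0.459).

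The chromosomal passenger complex corrects faulty attachments and later directs cytokinesis, with Aurkb (Aurora B) as its kinase, Birc5 (survivin) and Cdca8 (borealin) as its targeting subunits. Birc5 (chr11:117849251-117855743, plus strand) had on POD1 0, 0 and 0 CPM in hepatectomy libraries, against 1.35, 0.369 and 0.405 CPM in sham libraries, at least 1.70-fold lower than sham when 3 counts per library stand for 0 (adjusted p = 0.0176). On POD2, Birc5 had 3.51, 5.85 and 3.78 CPM in hepatectomy libraries, against 1.30, 0.785 and 0.622 CPM in sham libraries. On POD3, Birc5 had 3.13, 14.1 and 4.43 CPM in hepatectomy libraries, against 0.817, 0.500 and 0.536 CPM in sham libraries. No library of either group overlapped on POD1, POD2 or POD3. On POD4, Birc5 had 3.84, 9.83 and 17.2 CPM in hepatectomy libraries, against 0.922, 1.35 and 7.73 CPM in sham libraries, and the hepatectomy mean was at least 24.7-fold higher than that floor on POD1. Aurkb (chr11:69045647-69051664, plus strand) had on POD1 0.130, 0.558 and 0.438 CPM in hepatectomy libraries, against 0.898, 0.831 and 0.507 CPM in sham libraries. On POD2, Aurkb had 4.24, 6.27 and 3.52 CPM in hepatectomy libraries, against 2.25, 0.953 and 1.24 CPM in sham libraries. The POD1 groups overlapped, with hepatectomy replicate 2 above sham replicate 3, and the POD2 groups did not. On POD3, Aurkb had 2.97, 13.2 and 3.75 CPM in hepatectomy libraries, against 1.29, 1.45 and 1.01 CPM in sham libraries. The groups were again apart on POD3, with hepatectomy replicate 2 far above the rest. On POD4, Aurkb had 4.68, 10.9 and 13.7 CPM in hepatectomy libraries, against 1.06, 2.33 and 7.25 CPM in sham libraries. Aurkb was higher on POD4 than on POD1 after hepatectomy (log2 4.69, SE 0.80, adjusted p = 0.000268). Cdca8 had 3 counts against 39 on POD1, a ratio of 0.14 with a counting interval of 0.0276 to 0.44 (adjusted p = 0.0361).

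**Figure D3:**
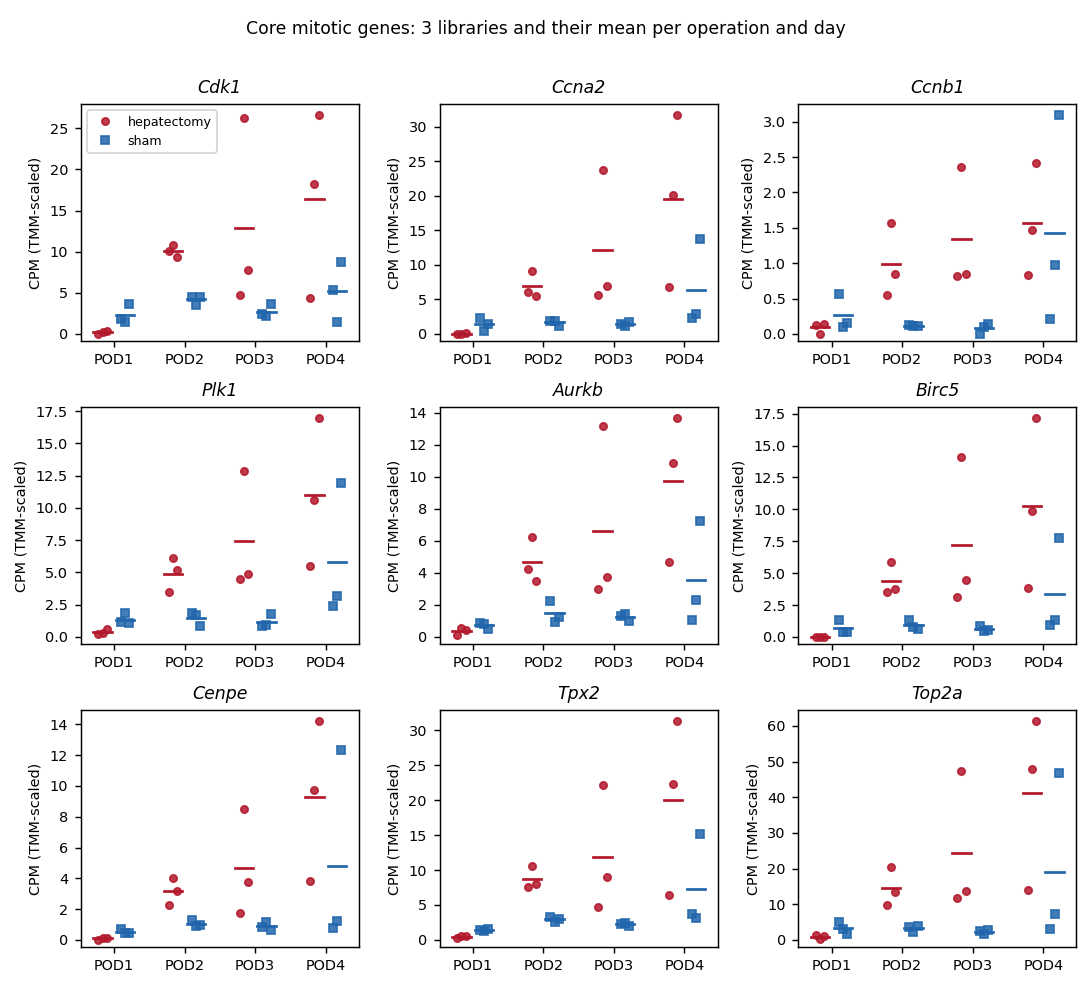
CPM (TMM-scaled, linear axis from 0) of 9 core mitotic genes in each library by day, hepatectomy as red circles and sham as blue squares, with a bar at each mean of 3. Hepatectomy points lie near 0 on POD1 and above all sham points on POD2 and POD3; on POD4 both operations spread widely.

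The APC/C pathway is represented by Ube2c (UBCH10), its ubiquitin-conjugating enzyme, and Cdc20, its mitotic activator. Ube2c (chr2:164769898-164778822, plus strand) had on POD1 0.260, 0 and 0 CPM in hepatectomy libraries, against 3.59, 1.66 and 0.659 CPM in sham libraries, 2 counts against 63, a ratio of 0.0577 with a counting interval of 0.00684 to 0.217 (adjusted p = 0.0132). On POD2, Ube2c had 4.78, 7.41 and 5.73 CPM in hepatectomy libraries, against 1.82, 1.29 and 1.87 CPM in sham libraries. On POD3, Ube2c had 5.93, 19.5 and 5.70 CPM in hepatectomy libraries, against 0.817, 1.25 and 1.01 CPM in sham libraries. Ube2c was below sham on POD1 and above it on the next days with no overlap. On POD4, Ube2c had 5.09, 15.7 and 21.4 CPM in hepatectomy libraries, against 1.63, 3.92 and 24.5 CPM in sham libraries, with sham replicate 3 the highest of all. Its exons share 22.8% of their bases with Tnnc2 on the opposite strand, so its counts carry the same uncertainty as those of Ccna2. Cdc20 was not called on POD1 (log2 -0.28, adjusted p = 0.764) and was higher on POD4 than on POD1 after hepatectomy by log2 2.80 (adjusted p = 0.00348).

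At the centromere, Cenpa encodes the histone H3 variant that marks it, and Ndc80 and Nuf2 form the kinetochore arm that holds microtubules. Cenpa (chr5:30666777-30674830, plus strand) had on POD1 9.35, 8.24 and 8.32 CPM in hepatectomy libraries, against 29.9, 27.2 and 34.95 CPM in sham libraries. The 3 hepatectomy libraries agreed closely and lay far below sham, and the test gave log2 -1.83, SE 0.28, adjusted p = 0.000172, the lowest adjusted p of any member on POD1. On POD2, Cenpa had 28.1, 29.1 and 25.98 CPM in hepatectomy libraries, against 35.1, 44.7 and 50.9 CPM in sham libraries, and it was the 1 member lower in every hepatectomy library on that day (21.7% of all genes were). On POD3, Cenpa had 15.2, 36.6 and 26.3 CPM in hepatectomy libraries, against 38.04, 34.8 and 34.7 CPM in sham libraries. On POD4, Cenpa had 23.6, 36.5 and 44.1 CPM in hepatectomy libraries, against 43.04, 27.8 and 30.1 CPM in sham libraries, and the groups overlapped on both days. After hepatectomy Cenpa was higher on POD4 than on POD1 (log2 2.01, SE 0.29, adjusted p = 6.31e-05), but on no day did all its hepatectomy libraries lie above sham. Ndc80 (chr17:71496100-71526857, minus strand) had on POD1 0, 0 and 0 CPM in hepatectomy libraries, against 0.786, 0.462 and 0.810 CPM in sham libraries, at least 1.65-fold lower than sham against a floor of 3 counts per library (adjusted p = 0.00459). On POD2, Ndc80 had 2.84, 3.01 and 2.28 CPM in hepatectomy libraries, against 1.08, 0.897 and 1.58 CPM in sham libraries. Ndc80 turned from below to above sham with no overlap. On POD3, Ndc80 had 1.81, 6.77 and 2.37 CPM in hepatectomy libraries, against 0.885, 0.600 and 0.670 CPM in sham libraries. On POD4, Ndc80 had 2.09, 6.11 and 8.58 CPM in hepatectomy libraries, against 1.28, 1.10 and 4.995 CPM in sham libraries. After hepatectomy Nuf2 was higher on POD4 than on POD1 by log2 5.04 (adjusted p = 0.000534). Cenpe, the kinesin that moves chromosomes to the spindle equator, had 553 counts on POD4 against 2 on POD1 after hepatectomy, a ratio of 110.2 with a counting interval of 30.4 to 912 (adjusted p = 0.000322). Cenpf, of the outer kinetochore, had 564 counts on POD4 against 2 on POD1 after hepatectomy, a ratio of 112 with a counting interval of 30.97 to 930.3 (adjusted p = 0.00158).

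Of the 11 spindle genes, none was called on POD1 (medians of log2 fold change -1.15 there, 1.45 on POD2, 2.42 on POD3 and 0.96 on POD4) and 8 were higher on POD4 than on POD1 after hepatectomy. Tpx2, which activates Aurora A on the spindle, had the lowest adjusted p of all members in that comparison (log2 5.41, SE 0.76, adjusted p = 5.64e-05). Tacc3, a stabiliser of spindle microtubules, and the kinesin Kif11 (Eg5), which pushes spindle poles apart, were higher by log2 4.25 and 4.70 (adjusted p = 0.000167 and 0.000968). Nusap1 and Hmmr, which bind spindle microtubules, and Psrc1 and Gtse1, which regulate them, were higher by log2 2.73, 2.32, 3.10 and 4.32 (adjusted p = 0.0153, 0.0328, 0.0103 and 0.00116). Ckap2, a microtubule stabiliser, had 501 counts on POD4 against 2 on POD1 after hepatectomy, a ratio of 99.8 with a counting interval of 27.5 to 827 (adjusted p = 0.000631). Kif2c, Dlgap5 and Ckap2l were not called (log2 1.33, 1.34 and 0.53, adjusted p = 0.11, 0.107 and 0.523). In cytokinesis, Anln (anillin) and Ect2, which set up the contractile ring, were higher on POD4 than on POD1 by log2 3.97 and 3.99 (adjusted p = 0.000137 and 0.00125). Kif23 (MKLP1, of the central spindle) was called lower on POD1 (log2 -1.97, adjusted p = 0.0215), but its sham POD1 libraries ranged from 19.5 to 137 CPM and overlapped the hepatectomy range of 20.4 to 24.99 CPM. Kif20b, a kinesin of late cytokinesis, had 389 counts on POD4 against 2 on POD1 after hepatectomy, a ratio of 77.5 with a counting interval of 21.3 to 642 (adjusted p = 0.00084). Ect2 was also called lower on POD1 (log2 -2.10, adjusted p = 0.0491).

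Of the chromosome genes, Top2a (chr11:98992943-99024189, minus strand), topoisomerase II alpha, which untangles sister chromatids, had on POD1 1.30, 0.140 and 1.02 CPM in hepatectomy libraries, against 5.05, 3.05 and 1.72 CPM in sham libraries. On POD2, Top2a had 9.86, 20.4 and 13.5 CPM in hepatectomy libraries, against 3.59, 2.24 and 3.85 CPM in sham libraries. On POD3, Top2a had 11.9, 47.3 and 13.7 CPM in hepatectomy libraries, against 2.38, 1.70 and 2.82 CPM in sham libraries. All 3 days were without overlap, below sham on POD1 and above it on POD2 and POD3, and POD1 missed the threshold (log2 -1.96, SE 0.93, adjusted p = 0.0978). On POD4, Top2a had 14.1, 47.9 and 61.4 CPM in hepatectomy libraries, against 3.05, 7.22 and 46.9 CPM in sham libraries, where sham replicate 3 alone reached the hepatectomy range. Top2a was higher on POD4 than on POD1 after hepatectomy (log2 5.63, SE 1.00, adjusted p = 0.000385). Ncapd2, a condensin subunit, and Cdca2 (Repo-Man), which guides a phosphatase to chromosomes at mitotic exit, were also higher on POD4 than on POD1. For Ncapd2 the log2 difference was 3.76 (adjusted p = 0.000198), and Cdca2 had 277 counts on POD4 against 3 on POD1 after hepatectomy, a ratio of 36.8 with a counting interval of 12.5 to 179.5 (adjusted p = 0.000834). Anp32e, a chaperone of histone H2A.Z, was higher by log2 1.07 (adjusted p = 0.0393), and Smc4, the condensin core subunit, was not called (log2 0.14, adjusted p = 0.65).

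Not all members were near 0 on POD1 after hepatectomy. Over 5 CPM, a cut on each gene's own CPM and not a ranking of genes, in all 3 hepatectomy POD1 libraries were 11 members: Cks2, Aurka, Cenpa, Hjurp, Ckap2l, Kif23, Smc4, Mki67, Hmgb2, Anp32e and Tmpo. Cenpa and Kif23 among them were nevertheless called lower than sham. Mki67 (chr7:135689784-135716361, minus strand), the Ki-67 protein that coats mitotic chromosomes and is widely used to mark dividing cells, had on POD1 61.4, 51.8 and 43.4 CPM in hepatectomy libraries, against 21.5, 13.3 and 3.75 CPM in sham libraries. Every hepatectomy library was above every sham library, and the test gave log2 2.03, SE 0.73, adjusted p = 0.0341, the 1 call in that direction. With library size alone the log2 fold change was 1.29 and the adjusted p 0.0971. With the replicate block they were 1.99 and 0.0517, and the call was also lost without any 1 of the 3 hepatectomy POD1 libraries or sham POD1 replicate 2 or 3. On POD2, Mki67 had 13.1, 28.3 and 21.6 CPM in hepatectomy libraries, against 7.70, 4.82 and 4.58 CPM in sham libraries. On POD3, Mki67 had 23.6, 41.6 and 19.99 CPM in hepatectomy libraries, against 8.57, 11.1 and 10.6 CPM in sham libraries. Mki67 remained above sham without overlap on both days. On POD4, Mki67 had 37.7, 55.05 and 71.9 CPM in hepatectomy libraries, against 4.54, 29.2 and 116 CPM in sham libraries. Between POD1 and POD4 after hepatectomy Mki67 did not pass the test (log2 0.07, adjusted p = 0.937), in contrast to Top2a and Cdk1.

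Hjurp (the chaperone that loads CENP-A), Hmgb2 (a DNA-bending chromatin protein) and Tmpo (a lamina-associated protein) are described next, chosen after their values were seen. Hmgb2 had 120.2, 123 and 149 CPM in hepatectomy libraries, against 121, 47.6 and 13.5 CPM in sham libraries on POD1, with replicate 1 of sham as high as hepatectomy. Hmgb2 on POD2 had 48.04, 30.8 and 35.4 CPM in hepatectomy libraries, against 21.4, 16.98 and 11.7 CPM in sham libraries, and it was lower than on POD1 after hepatectomy (log2 -1.78, SE 0.66, adjusted p = 0.0299). Hjurp had 139, 133 and 149 CPM in hepatectomy libraries, against 129, 99.4 and 61.04 CPM in sham libraries on POD1, without overlap, but its log2 fold change of 0.54 was not called and was -0.34 with library size alone. Hjurp on POD2 had 62.9, 69.2 and 76.1 CPM in hepatectomy libraries, against 63.1, 67.6 and 56.1 CPM in sham libraries, also lower than on POD1 after hepatectomy (log2 -1.01, SE 0.42, adjusted p = 0.0491). These were the 2 members called lower on POD2 than on POD1 (21.9% of all genes were), and both calls were lost with library size alone, where the log2 differences were -0.51 for Hmgb2 and 0.26 for Hjurp. Tmpo had 119, 143 and 149.8 CPM in hepatectomy libraries, against 217, 170.2 and 89.2 CPM in sham libraries on POD1, and the groups overlapped. Hmgb2, Hjurp and Tmpo were highest among later hepatectomy libraries in replicate 1 of POD3 and of POD4, with 82.04 and 92.03 CPM of Hmgb2, 147 and 163 CPM of Hjurp, 300.2 and 258 CPM of Tmpo. These are libraries low in endothelial markers (1601 and 4395 CPM) and high in neutrophil markers (63862 and 80522 CPM). In those same libraries Cdk1, Plk1 and Top2a were each the lowest of their group, but above every hepatectomy POD1 library. The part of the cell mixture in these differences was not tested.

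**Figure D4:**
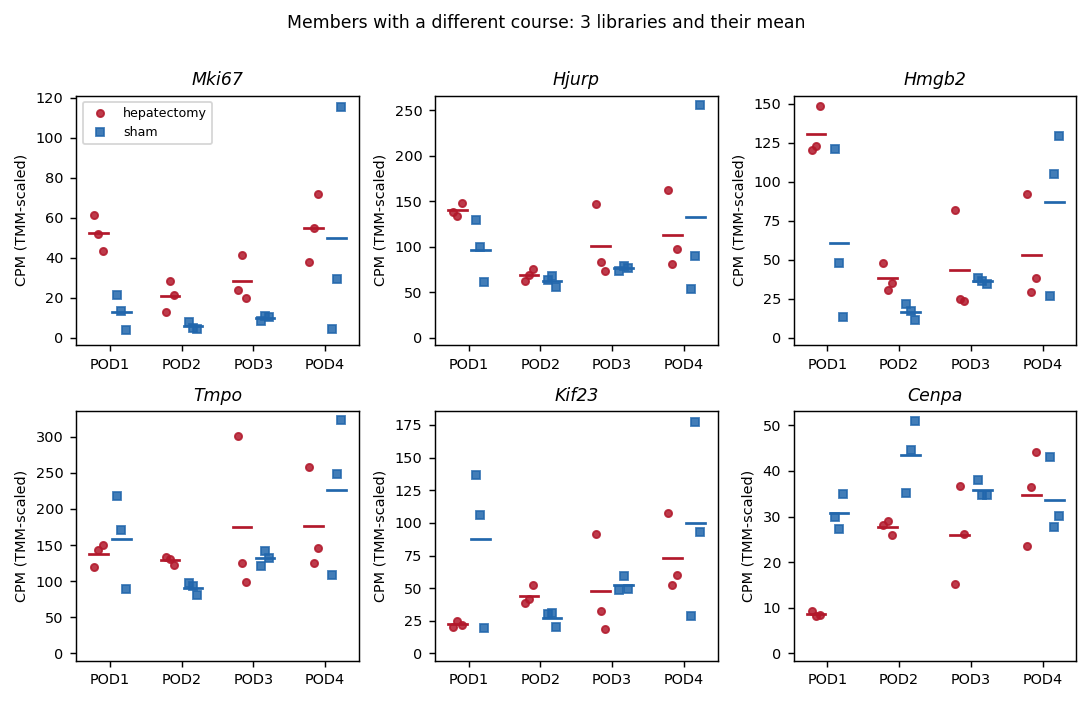
CPM (TMM-scaled, linear axis from 0) of 6 members whose course differed from the core genes, drawn as in the plot of core genes. On the TMM scale Mki67, Hjurp and Hmgb2 are high in the 3 hepatectomy POD1 libraries, Cenpa is low there and overlaps sham on POD3 and POD4, and Kif23 and Tmpo are widely spread in sham POD1 and POD4.

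Sham POD4 replicate 3 stood apart. It was the highest sham library for 41 of the 47 members, with 46.9 CPM of Top2a and 116 CPM of Mki67 against 3.05 and 4.54 CPM in replicate 1. Its summed neutrophil markers were 139491 CPM, against 9211 and 65582 CPM in replicates 1 and 2, and its summed neutrophil precursor markers (8 genes, Mpo and Elane among them) were 98.2 CPM, against 7.16 and 28.0 CPM. The part of precursor cells in its mitotic levels was not tested. After hepatectomy the precursor sums were 16.6 to 22.7 CPM on POD1 and 4.94 to 9.50 CPM on POD2, 6.31 to 35.3 CPM on POD3 and 6.98 to 28.1 CPM on POD4. Monocyte markers summed to 381 to 514 CPM in hepatectomy POD1 libraries and 264 to 1704 CPM in sham POD1 libraries, and on POD2 to 878 to 1169 CPM after hepatectomy and 193 to 736 CPM after sham.

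Further genes of these processes were tested in the same fit, from lists drawn up with earlier results known. Of 110 further mitosis genes tested, 10 were higher and 26 lower on POD1, where 13% of all genes were higher and 28% lower, with a median log2 fold change of -0.67. None was called on POD2, POD3 or POD4 (medians 0.72, 0.79 and 0.72), and 75 were higher and 7 lower on POD4 than on POD1 after hepatectomy (median 2.28), where 32.6% of all genes were higher and 17.6% lower. Haus4, of the augmin complex that nucleates spindle microtubules, had 0.779, 1.54 and 1.02 CPM in hepatectomy POD1 libraries, against 9.32, 7.20 and 9.83 CPM in sham POD1 libraries (log2 -2.98, adjusted p = 3.56e-05). Fzr1 (CDH1), which activates the APC/C after mitosis and in G1, went the other way, with 84.8, 86.7 and 93.6 CPM in hepatectomy POD1 libraries, against 46.6, 45.9 and 29.3 CPM in sham POD1 libraries (log2 1.12, adjusted p = 0.000642). Against the same shares, of 36 S phase genes 1 was higher and 17 lower on POD1 (median -1.40), none was called on POD2 to POD4 (medians 1.13, 1.34 and 1.57), and 30 were higher on POD4 than on POD1 after hepatectomy (median 3.70). Mcm2, a subunit of the replicative helicase, had 0.519, 0.977 and 0.876 CPM in hepatectomy POD1 libraries, against 2.13, 6.92 and 17.3 CPM in sham POD1 libraries (log2 -3.48, adjusted p = 0.00366). The groups of Haus4, Fzr1 and Mcm2 did not overlap on POD1.

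Among 24 genes of the transcriptional control of this programme, 1 was higher and 6 lower on POD1, where 13% of all genes were higher and 28% lower. E2f1, an activator of S phase genes, had 0.130, 0.140 and 0.146 CPM in hepatectomy POD1 libraries, against 2.25, 3.97 and 4.10 CPM in sham POD1 libraries. That is 3 counts against 144, a ratio of 0.0379 with a counting interval of 0.00772 to 0.113 (adjusted p = 0.000343). On POD2, E2f1 had 13.7, 16.4 and 11.8 CPM in hepatectomy libraries, against 5.36, 2.80 and 3.85 CPM in sham libraries. E2f1 thus changed sides without overlap, as Cdk1 and Ccna2 did. Foxm1, which activates mitosis genes, had 3.89, 2.23 and 4.38 CPM in hepatectomy POD1 libraries, against 2.02, 3.51 and 4.25 CPM in sham POD1 libraries, and the groups overlapped; Foxm1 was picked after its values were seen. Of 13 cell cycle inhibitors tested, none was higher and 3 were lower on POD1 (Cdkn2b, Cdkn1c and Cdkn2a), against the same 13% and 28% of all genes. The summed level of the inhibitors was 8195 to 8546 CPM on POD1, 2615 to 3934 CPM on POD2, 1783 to 5564 CPM on POD3 and 2325 to 6173 CPM on POD4 after hepatectomy, and 1662 to 9579 CPM on POD1 after sham. The part of the inhibitors in the levels of the mitosis genes was not tested.

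Single calls on POD1 differed in how far they held when each of the 24 libraries was left out in turn. Cdk1, Ccna2, Ndc80 and Cenpa stayed past 0.05 in all 24 fits, Birc5 and Ube2c in 23, Bub1, Cdca8, Kif23 and Mki67 in 19, and Ect2 in 7. Under the other settings Ccna2 (adjusted p = 0.151) and Birc5 (0.0687) lost the call by voom. Ect2 lost it by voom (0.11), with median-of-ratios factors (0.0606), without a low-count filter (0.0628) and with the replicate block (0.0597). Counts under about 3 per library carry wide counting intervals, and the intervals above cover counting error only.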

How the data were processed

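The authors deposited 1 table of raw read counts per gene symbol for the 24 libraries, with no normalization. Cutadapt, STAR 2.4.2a, HTSeq and the mouse build GRCm38 are named per the submitters' processing notes; which gene annotation was used, how strand was handled and whether reads were filtered are not given in the sources used here. The deposited counts sum to 10390216 to 16949088 per library, so a gene with 0 counts in a library is taken as up to 3 counts.

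The members and all lists were chosen with earlier results of these data known. From the counts, edgeR 4.0.16 (R 4.3.3) fitted 1 quasi-likelihood model of 8 groups to all 24 libraries after TMM scaling, on the 14325 genes that filterByExpr kept, with Benjamini-Hochberg adjustment over all of them and a threshold of 0.05. Hepatectomy was set against sham on each day, the operation effect was compared between days, and days were compared within each operation. Standard errors are the log2 fold change over the square root of F, and are approximate. The steps were tested on simulated data. Genes given with all values were Mki67, Top2a, Cdk1, Ccnb1, Ccnb2, Plk1, Aurkb, Birc5 and Cenpa and the members with the lowest adjusted p on POD1; any others were chosen after their values were seen. Alternatives were DESeq2 1.42.0, limma 3.58.1 voom with sample weights, other scalings and filters, a replicate block, and leaving out each library. Counting intervals are exact at 95% and cover counting error only. Gene positions are from GENCODE M21 on GRCm38 and promoters from RefSeq on GRCm38.p6.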

Additional observations from a re-analysis of the deposited data

Results flagged for a closer look

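For 13 members the effect of hepatectomy over sham differed between the 4 days by a test of the difference itself (interaction with 3 degrees of freedom, edgeR, Benjamini-Hochberg over all tested genes, of which 8.68% passed). The adjusted p was 0.0134 for Ndc80, 0.0134 for Ccna2, 0.0171 for Cdk1, 0.0179 for Ube2c, 0.0226 for Birc5, 0.0232 for Cenpa and 0.0248 for Plk1. It was 0.0259 for Bub1, 0.038 for Cdca8, 0.0386 for Cdca3, 0.0432 for Top2a, 0.0448 for Tpx2 and 0.0498 for Tacc3. Cenpa was below sham on POD1 and POD2, and the other 12 had a negative log2 fold change on POD1 and a positive one on POD2 and POD3. The hepatectomy POD1 libraries, on which these tests lean, also had the lowest TMM factors and high neutrophil marker sums; the part of either was not tested.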

How the results depend on the processing

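On POD1, where 1 member was higher and 10 lower, the count higher was 2 by DESeq2 (16.8% of all genes tested were), 0 with library size alone (4.26%), 3 by voom (21.7%), 0 with the replicate block (12.9%) and 3 (18.5%) without the 4 late libraries low in endothelial markers. The count lower was 29 with library size alone, where 56.3% of all genes were lower, 20 without those 4 libraries (35.7%) and 3 from the 6 POD1 libraries alone (12.9%), where 27 members were tested. On POD2, where none was called, DESeq2 called 2 higher (0.81%), voom 38 higher (19%) and 1 lower (13.7%), the fit without the 4 libraries 5 higher (0.745%), and the 6 POD2 libraries alone 36 higher (15.9%) and 1 lower (13%) of 44 tested. On POD3, DESeq2 called 26 higher (1.89%), voom 37 higher (12.8%) and 3 lower (13.6%), and the fit without the 4 libraries 30 higher (1%). On POD4, voom called 29 higher (27.8%) and 4 lower (22.8%). The interaction count of 13 was 28 by DESeq2 (23.4%), 31 with library size alone (17.7%), 35 by voom (72.4%) and 33 without the 4 libraries (25%). Over days after sham, DESeq2 called 23 (10.7%), voom 15 (70.1%) and the fit without the 4 libraries 1 (10%). The alternatives for later days against POD1 were added after seeing the data, and the 4 libraries were known from an earlier analysis of these data. Members lower than on POD1 after hepatectomy numbered 2 on POD2 (21.9% of all genes). The alternatives gave 0 with library size alone (5.3%), 1 without a low-count filter (8.47%) and 4 by voom (33.4%). They gave 1 with the block (21.4%) and 4 without the 4 libraries (26.6%). On POD3 the members lower than on POD1 numbered 1 (19%). The alternatives gave 2 by DESeq2 (24.3%), 0 with library size alone (4.47%), 0 without a filter (7.35%) and 0 with the 5 CPM filter (21.4%). They gave 5 by voom (35.4%) and 3 without the 4 libraries (28.6%). On POD4 the members lower than on POD1 numbered 0 (17.6%), against 3 by voom (34.9%) and 3 without the 4 libraries (26.2%). The counts higher than on POD1 stayed within 1.5 times in every alternative run.

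Leaving out each library in turn gave 0 to 4 higher and 7 to 17 lower on POD1, 0 to 0 on POD2, POD3 and POD4, 2 to 24 in the interaction, 27 to 36 over days after hepatectomy and 0 to 29 over days after sham. Higher than on POD1 were 28 to 33, 31 to 35 and 33 to 37 members on POD2, POD3 and POD4, and lower 0 to 3, 0 to 2 and 0 to 1. No member was called higher on POD1 without any 1 of the hepatectomy POD1 libraries or sham POD1 replicate 2 or 3 (9.01% of all genes without replicate 3). Without sham POD1 replicate 1 the count was 4, and without sham POD4 replicate 1 it was 2 (15%). The count lower on POD1 was 17 without sham POD4 replicate 3. Calls among all genes moved too. On POD1 they numbered, in either direction, 5866 of 14325 genes in the main fit and 6126 of 14654 without sham POD4 replicate 3. The lowest was 3304 of 14603 without sham POD1 replicate 3, and the highest 6784 of 14654 without sham POD1 replicate 1. The interaction count was 2 without any 1 of the hepatectomy POD1 libraries, 6 without sham POD1 replicate 2, 24 without sham POD4 replicate 1 (32.4% of all genes) and 22 without replicate 3. It was 8 without each of hepatectomy POD2 replicates 1 to 3, hepatectomy POD4 replicates 2 and 3, sham POD1 replicate 3 (6.05%), sham POD2 replicates 2 and 3 and sham POD3 replicates 1 to 3. Shares of all genes in the interaction are given only where they were computed. Of the values of single members, leaving out a library kept 657 on their side of the threshold and 39 lost it. The other settings kept 187, while 8 lost it and 35 gained it. No value reversed. The causes were not tested.

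Groups share replicate numbers. Deviations of same-numbered libraries correlated at 0.135, 0.0519 and 0.237 on POD1 and at 0.196, 0.0317 and -0.297 on POD2. They correlated at -0.239, -0.135 and -0.142 on POD3 and at -0.902, -0.728 and -0.668 on POD4. The cell mixture differed between libraries of a group, so these values cannot decide whether the numbers pair the samples. With the replicate block, 0 members were higher and 11 lower on POD1 (12.9% and 24.7% of all genes), and 0 were called on POD2 to POD4. The block called 9 in the interaction (6.28%) and 34 over days after hepatectomy (41.4%). On POD1, 4 members had no count in any hepatectomy library, so their fitted folds are not estimates. Birc5 and Ndc80 have bounds against sham, while Bub1 and Ttk, with sham means under the floor, have none.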
